A study of Homo sapiens with 6 samples.

Results

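KIAA1191, LRRC3B, RIMS4 and PLEKHH1 are 4 protein-coding genes with sparse functional annotation that stood among the strongly lowered genes of ACAT2-deficient HGC-27 cells. They are 4 of the 58735 genes measured, and all 4 were among the 13832 genes that reached a mean of 1 FPKM in either group. They were chosen by their low FPKM in shACAT2 against shNC cells, the contrast described here, so their own values are given as a description without a test. HGC-27, an undifferentiated gastric carcinoma line of human origin, is long established in culture. Its cells received the pSIH-H1-Puro vector carrying a short hairpin RNA against ACAT2 (shACAT2) or, as the control, the vector without such a hairpin (shNC). Both groups were exposed to the vector for 24 h and then kept under puromycin for 7 days. The genotype was labelled WT for shNC and ACAT2 knockdown for shACAT2. Total RNA was sequenced as 3 libraries per group, to examine which transcripts changed when ACAT2 was depleted. The labels do not say which hairpin the shACAT2 cells carried, and nothing is stated about clones, so each group is taken as 1 selected population.

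KIAA1191 encodes a cytosolic protein with a proposed flavin monooxygenase-like activity, and its symbol still comes from a large-scale cDNA sequencing project. LRRC3B encodes a membrane protein with leucine-rich repeats that has been discussed as a tumour suppressor silenced in gastric cancer. RIMS4 encodes the shortest type of RIM protein, a family known for scaffolding synaptic vesicles and calcium channels at the presynaptic active zone. PLEKHH1 encodes a protein with pleckstrin homology, MyTH4 and FERM domains, the last being a module that links membrane proteins to the actin cytoskeleton. None of these genes is a classical marker of gastric epithelium.

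Values are FPKM, fragments divided by gene length and by library size, as the authors calculated them. Libraries held 14086416 to 16067486 fragments on genes, and the fragments behind each value could be read back. The library shACAT2-3 stood apart, in that 7477 genes were detected nowhere but there, whereas each remaining library had 416 to 657 such genes. In autosomal genes silent everywhere else it held 0.778 fragments per kb, against 0.0508 to 0.0809 in the others. Among the shNC libraries, shNC-2 and shNC-3 lay closest, with a chi-square per gene of 1.77, and remaining replicate pairs gave 14.2 to 54.7. They were kept as separate samples, and p-values measure only the spread between libraries. The targeted gene ACAT2, which encodes the cytosolic acetyl-CoA acetyltransferase, was 12.9 ± 1.25 FPKM in shNC cells and 5.90 ± 0.388 in shACAT2 cells (SD, n = 3). Its log2 fold change was −1.01 (SE 0.10, limma adjusted p = 0.0059), and the adjusted p was 0.0512 without shNC-3. Of the 15 epithelial and gastric markers examined, only MUC1 reached the level needed for testing (2.09 and 3.52 FPKM as group means, adjusted p = 0.025). EPCAM averaged 0.023 FPKM in shNC cells, and TFF1, GKN1 and PGC were listed at 0 in all 6 libraries. The labelled stomach origin was thus not visible from these differentiation markers. Among mesenchymal markers, the intermediate filament gene VIM stood at 263 FPKM. VIM, FN1 and CDH2 summed to 248 to 294 FPKM per shNC library and 343 to 463 per shACAT2 library. CDH2 did not reach the level needed for testing. VIM had a log2 fold change of 0.62 (adjusted p = 0.063 by limma, 0.031 by limma-voom on the fragments), and FN1 one of 0.13 (limma adjusted p = 0.51).

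Promoter sequences are shown for the genes that had an entry in the RefSeq promoter table (GRCh38.p14), because they frame the transcripts described next. Each run gives the 250 bases before the first listed start and 30 bases after it, 5′ to 3′ on the gene's strand, with motif matches in capitals. The KIAA1191 window is chr5:176361778-176362057 on the minus strand, and the LRRC3B window is chr3:26622522-26622801 on the plus strand.
KIAA1191: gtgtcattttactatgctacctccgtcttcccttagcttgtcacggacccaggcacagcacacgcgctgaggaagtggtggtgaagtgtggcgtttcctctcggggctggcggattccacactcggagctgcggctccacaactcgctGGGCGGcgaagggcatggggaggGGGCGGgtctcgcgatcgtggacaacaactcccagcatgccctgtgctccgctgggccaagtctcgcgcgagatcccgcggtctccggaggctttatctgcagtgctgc
LRRC3B: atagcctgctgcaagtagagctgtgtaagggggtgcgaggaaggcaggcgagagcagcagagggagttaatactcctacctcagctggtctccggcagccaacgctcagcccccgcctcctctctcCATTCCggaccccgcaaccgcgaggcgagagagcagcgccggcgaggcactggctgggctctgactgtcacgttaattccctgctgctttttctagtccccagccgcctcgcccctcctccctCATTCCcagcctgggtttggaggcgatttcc
In KIAA1191 the capitals mark the GC box GGGCGG, the letters bound by SP factors, at positions −102 and −79 from the listed start. In the gene annotation used below, KIAA1191 reaches to 176361968 on the minus strand, so both matches lie inside that annotated span. In LRRC3B the capitals mark the TEAD core GGAATG on the opposite strand, read as CATTCC, at positions −124 and −1 from the listed start. Both strands of the 300-base windows were searched for the TATA box TATAAA, the CCAAT box, the GC box GGGCGG, the ETS core CGGAAG, the TEAD core GGAATG and the E-box CACGTG, and the marked matches do not overlap one another. Of 35116 RefSeq promoters, 45.0% held the GC box and 14.0% the TEAD core, while 11.5% held the TATA box, 34.6% the CCAAT box, 19.5% the ETS core and 7.26% the E-box. The GC content was 63.7% in the KIAA1191 window and 62.0% in the LRRC3B window, near the median of 58.7% over all promoters. The KIAA1191 window held 24 CpG dinucleotides and the LRRC3B window 18, against a median of 14. Later listed starts gave other windows, which are not printed. Window 2 of KIAA1191 overlaps the printed window and held the same 2 GC boxes, at positions −145 and −122 from its own start. For LRRC3B, windows 2 and 3 held none of the motifs searched, and window 4 held 2 TEAD cores. Its window 5 held 2 GC boxes and window 6 held 1 TATA box, both without a TEAD core. The motifs found for LRRC3B thus depend on which start is taken. These matches are letters in a window and carry no measurement of binding.

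KIAA1191 (ENSG00000122203) lies on the minus strand of chromosome 5 of GRCh38, from 176346061 to 176361968. In shNC-1 to shNC-3 it had 28.7, 26.2 and 24.8 FPKM, from 1744, 1689 and 1697 fragments. In shACAT2-1 to shACAT2-3 it had 6.35, 4.41 and 5.20 FPKM, from 383, 291 and 310 fragments. Every shACAT2 library lay far below every shNC library, with the lowest shNC value 3.90 times the highest shACAT2 value. The mean was 26.6 ± 1.98 FPKM in shNC cells and 5.32 ± 0.977 in shACAT2 cells (SD, n = 3), so that 20.0% of the shNC level was left. On the log2(FPKM + 1) scale the difference was −2.13 (SE 0.13), which ranked 1 among all genes tested from the most lowered. In terms of level, KIAA1191 moved from percentile 88.4 to percentile 49.1 of the genes tested, from a well-expressed gene to one near the middle. Whether fewer cells transcribed a gene or each cell held less of its RNA cannot be told apart in bulk samples.

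RIMS4 (ENSG00000101098), the RIM family member, lies on the minus strand of chromosome 20 from 44751808 to 44810338. The shNC libraries 1 to 3 gave 32.1, 27.4 and 26.6 FPKM, from 2558, 2311 and 2390 fragments. The shACAT2 libraries 1 to 3 gave 10.2, 8.84 and 6.85 FPKM, from 807, 765 and 535 fragments. The groups did not overlap, and shNC-1 was the highest shNC library while shACAT2-3 was the lowest of all 6. Mean levels were 28.7 ± 2.97 and 8.63 ± 1.69 FPKM (SD, n = 3), 30.1% of the shNC level, with a log2 difference of −1.64 (SE 0.15) and rank 3. Among the 4 genes RIMS4 had the highest mean level per length in both groups, although its shNC values overlapped those of KIAA1191. This RIM gene of a synaptic family stood at percentile 89.4 of the genes tested in shNC cells, while of 10 neuronal markers NEFL alone reached the level needed for testing (1.48 and 1.95 FPKM as group means, adjusted p = 0.25).

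LRRC3B (ENSG00000179796), the leucine-rich repeat gene, lies on the plus strand of chromosome 3 from 26622806 to 26717537. It had 2.56, 2.75 and 2.65 FPKM in shNC-1 to shNC-3, from 350, 397 and 408 fragments. It had 0.591, 0.600 and 0.672 FPKM in shACAT2-1 to shACAT2-3, from 80, 89 and 90 fragments. Replicates were close, and no shACAT2 library reached a level near the shNC range. The means were 2.65 ± 0.0907 and 0.621 ± 0.0447 FPKM (SD, n = 3), a level 4.27-fold lower in shACAT2 cells. The coefficient of variation in shACAT2 cells was 7.19%, below the 10.8% that counting error alone gives for so few fragments. On the log2(FPKM + 1) scale the difference was −1.17 (SE 0.11, rank 35), which understates the change of a gene at this level. With a pseudocount of 0.1 in place of 1 it was −1.93, and by limma-voom on the fragments −2.09. LRRC3B passed the filter on low values only through the shNC group. Its percentile among the genes tested was 30.0 in shNC cells and 1.66 in shACAT2 cells. The lower percentile follows from the filter, since genes tested with a mean under 1 FPKM in shACAT2 cells stand at the bottom there. It does not measure the size of the fall.

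PLEKHH1 (ENSG00000054690), the gene of the PH, MyTH4 and FERM domain protein, lies on the plus strand of chromosome 14 from 67533301 to 67589612. In shNC-1 to shNC-3 its FPKM was 3.76, 3.48 and 3.82, from 622, 610 and 712 fragments. In shACAT2-1 to shACAT2-3 its FPKM was 1.33, 1.36 and 1.77, from 219, 244 and 287 fragments. The groups did not overlap, and shACAT2-3 lay above the other two shACAT2 libraries. The means were 3.68 ± 0.181 and 1.49 ± 0.244 FPKM (SD, n = 3), with 40.3% of the shNC level left and a log2 difference of −0.92 (SE 0.11). This was the smallest change of the 4 genes, at rank 114. With a pseudocount of 0.1 the PLEKHH1 difference was −1.26, and by limma-voom −1.32.

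**Figure D1:**
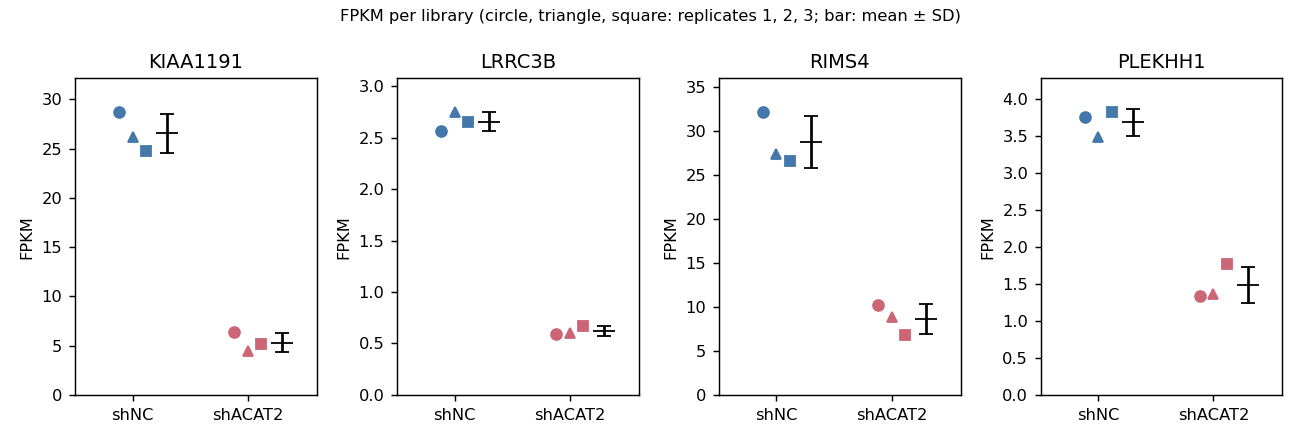
FPKM of KIAA1191, LRRC3B, RIMS4 and PLEKHH1 in each of the 3 shNC and 3 shACAT2 libraries, 1 panel per gene with its own axis from 0. Symbols are libraries 1 to 3 and bars are mean ± SD. All shACAT2 points lie below all shNC points in each panel, with means of 5.32, 0.621, 8.63 and 1.49 FPKM against 26.6, 2.65, 28.7 and 3.68.

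Over all 13832 genes tested, 14.5% had 3 shACAT2 values all below the 3 shNC values, and 4 of these 4 genes were among them, which their choice had fixed. A log2 fold change below −1 was found for 82 genes, or 0.593%, and 3 of the 4 belonged to those, while PLEKHH1 stood with the 114 genes, or 0.824%, at or below its own value. The median log2 fold change over all genes tested was 0.016. The order of what remained was KIAA1191 (20.0%), LRRC3B (23.4%), RIMS4 (30.1%) and PLEKHH1 (40.3%). Counted against the total of fragments on genes in place of the authors' scaling, the 4 genes kept 19.2%, 22.6%, 28.9% and 39.1% in the same order. Without shACAT2-3 they kept 20.2%, 22.4%, 33.2% and 36.5%. Single libraries make neighbours in that order hard to tell apart. KIAA1191 ranged from 16.6% to 23.9% of its shNC mean over the shACAT2 libraries and LRRC3B from 22.3% to 25.3%, so these overlap. RIMS4 ranged from 23.9% to 35.6% and PLEKHH1 from 36.2% to 48.0%, so these do not overlap, although they are close.

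**Figure D2:**
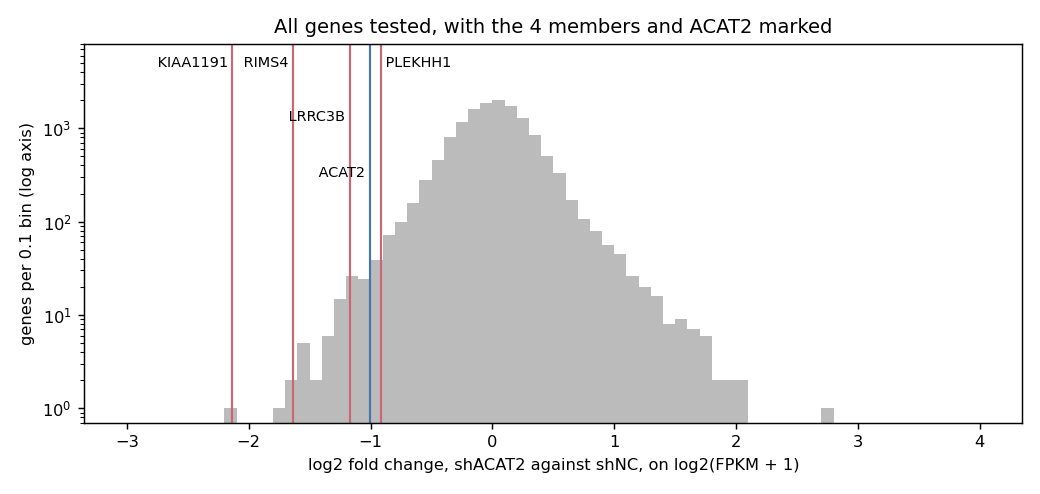
Histogram of log2 fold changes, shACAT2 against shNC on log2(FPKM + 1), for the 13832 genes tested in bins of 0.1, with the number of genes on a log axis. The red lines mark KIAA1191 (−2.13), RIMS4 (−1.64), LRRC3B (−1.17) and PLEKHH1 (−0.92), and the blue line marks ACAT2 (−1.01). All lie in the left tail, and KIAA1191 forms its end.

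The members differed in how they varied between the shACAT2 libraries. KIAA1191 and RIMS4 were highest in shACAT2-1, whereas PLEKHH1 was highest in shACAT2-3. LRRC3B was also highest in shACAT2-3, but its 80, 89 and 90 fragments varied by less than counting error gives. Its order is therefore not read. In FPKM, RIMS4 was 8.55, 7.87 and 6.97 times PLEKHH1 over the shNC libraries, and 7.66, 6.51 and 3.87 times over the shACAT2 libraries. It was thus lowest in shACAT2-3, the library with more fragments in genes that were silent elsewhere. At the rate of 0.778 fragments per kb, that library would hold 6.94 such fragments in LRRC3B, or 7.71% of its 90, and 8.42 in PLEKHH1, or 2.93% of its 287. The same rate gives 3.09 fragments in KIAA1191 (0.998%) and 4.05 in RIMS4 (0.757%). KIAA1191 and RIMS4 were near-equal in shNC cells, with ratios of 0.893, 0.958 and 0.930, and KIAA1191 was the lower of the pair in shACAT2 cells, with ratios of 0.622, 0.498 and 0.759. The KIAA1191 to LRRC3B ratio was 11.2, 9.55 and 9.34 in shNC cells and 10.7, 7.34 and 7.73 in shACAT2 cells, so these groups overlapped.

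The paralogues of RIMS4, LRRC3B and PLEKHH1 were not among the genes called. RIMS3, like RIMS4 a RIM gene of the short type, had 4.53, 4.01 and 3.86 FPKM over the shNC libraries. Over the shACAT2 libraries it had 3.86, 4.12 and 3.82 FPKM. The groups overlapped, and the log2 fold change of RIMS3 was −0.06 (SE 0.09, adjusted p = 0.76). LRRC3, the closest relative of LRRC3B, was 4.23 ± 0.208 FPKM in shNC cells and 3.78 ± 0.390 in shACAT2 cells (SD, n = 3), with overlapping groups and an adjusted p of 0.46. PLEKHH3 was 17.5 ± 2.19 and 16.9 ± 5.59 FPKM (SD, n = 3), with an adjusted p of 0.84 and a low value of 11.1 in shACAT2-3. Of these 3 paralogues tested, limma called 0 at an adjusted p below 0.05 and 0 at an unadjusted p below 0.05, as against 5.1% and 23.5% of all genes, and limma-voom called 0. A p above the threshold does not show equal levels, and the difference between a member and its paralogue was not tested. PLEKHH2, under the filter on low values, had 0.578, 0.514 and 0.513 FPKM over the shNC libraries and 0.710, 0.887 and 1.17 over the shACAT2 libraries, in replicate order. Its shACAT2 values were all higher than its shNC values, the opposite direction to PLEKHH1, with the highest in shACAT2-3. RIMS1, RIMS2 and LRRC3C also lay under the filter, with group means of at most 0.134 FPKM.

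**Figure D3:**
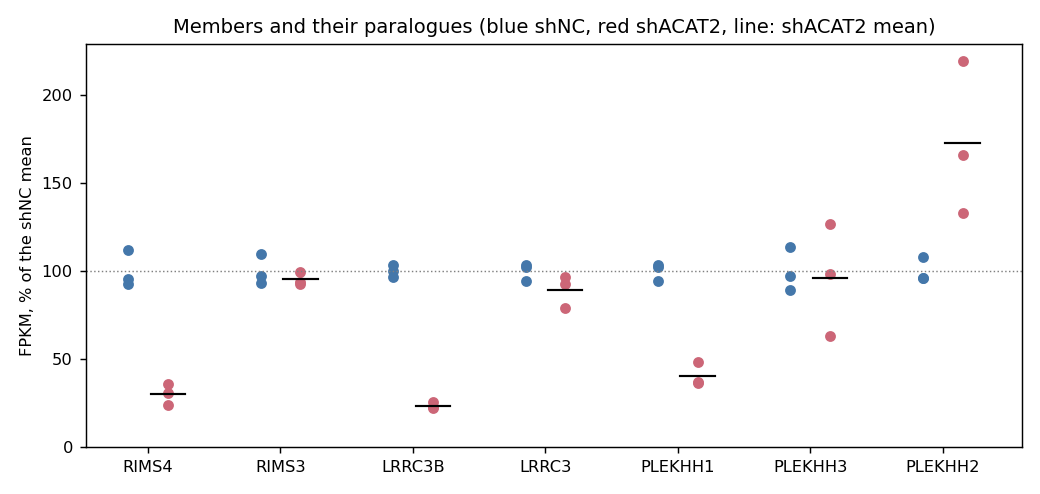
FPKM per library as a percent of the gene's shNC mean (dotted line) for RIMS4, LRRC3B and PLEKHH1 beside their paralogues, with shNC libraries in blue, shACAT2 libraries in red and a line at the shACAT2 mean. The members are lower in all 3 shACAT2 libraries, RIMS3, LRRC3 and PLEKHH3 overlap between the groups, and PLEKHH2 is higher in all 3 shACAT2 libraries.

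Genes that share a process, a protein domain or a proposed activity with the members were examined in 4 lists, without the members. In the list of vesicle docking and exocytosis, the process in which RIM proteins act, 20 of 49 genes could be tested. Limma called 0 lower and 0 higher in shACAT2 cells, against 1.81% and 3.3% of all genes tested, while 5 of the 20 had an unadjusted p below 0.05 and limma-voom called 1 higher. The median log2 fold change of the 20 was −0.04, and 13 of them were lower, against 47.7% of all genes tested. Those with an unadjusted p below 0.05 were CPLX1, which was higher, and ERC1, RAB3B, DOC2A and RAB3D, which were lower. The lower ones had log2 fold changes of −0.39, −0.35, −0.32 and −0.26, with limma adjusted p of 0.096 to 0.14. CPLX1, which encodes a complexin that clamps SNARE-mediated fusion, had 5.98 ± 0.770 FPKM in shNC cells and 11.6 ± 3.08 in shACAT2 cells (SD, n = 3), with an adjusted p of 0.055. CPLX1 was higher in all 3 shACAT2 libraries, the opposite direction to RIMS4. It missed the threshold here but was called higher with the replicate number as a block (limma adjusted p = 0.034) and by limma-voom (adjusted p = 0.028).

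Among leucine-rich repeat transmembrane proteins, 21 of 49 genes were tested, with a median of 0.08. Of these, 1 was called lower and 1 higher, beside 1.81% and 3.3% of all genes tested. LRIG1, a negative regulator of receptor tyrosine kinases, fell from 6.71 ± 0.709 to 3.63 ± 0.0804 FPKM (SD, n = 3; log2 fold change −0.73, adjusted p = 0.012). TPBG, the oncofetal 5T4 antigen, rose from 2.73 ± 0.362 to 5.08 ± 0.631 FPKM (SD, n = 3; adjusted p = 0.025).

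Among FERM domain proteins, 34 of 52 genes were tested, with a median of 0.01. Of these, 2 were called lower and 1 higher, beside 1.81% and 3.3% of all genes tested. FERMT1, which encodes kindlin-1 of integrin activation, fell from 8.82 ± 0.504 to 5.94 ± 0.518 FPKM (SD, n = 3; adjusted p = 0.034). PTPN3, a FERM-containing tyrosine phosphatase, fell from 6.88 ± 0.306 to 4.43 ± 0.669 FPKM (SD, n = 3; adjusted p = 0.044). EZR, which encodes ezrin, the linker between plasma membrane and actin filaments, showed the largest log2 difference among the listed genes called. It had 16.6, 12.7 and 12.9 FPKM over the shNC libraries and 49.5, 41.1 and 38.9 over the shACAT2 libraries, a rise of 1.56 on the log2 scale (SE 0.15, adjusted p = 0.0048). Its direction was opposite to that of PLEKHH1, and the call held with each library left out in turn.

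Among flavin monooxygenases, 4 of 11 genes were tested, with 1 called lower and 1 higher and a median of 0.20. MICAL3, an enzyme that acts on actin, fell from 3.62 ± 0.141 to 2.15 ± 0.333 FPKM (SD, n = 3; adjusted p = 0.037). SQLE, the squalene epoxidase of cholesterol synthesis, rose from 157 ± 8.75 to 221 ± 7.86 FPKM (SD, n = 3; adjusted p = 0.044). Over the lists together, 79 of 161 genes were tested and 4 were called lower and 3 higher. Over all genes tested, the shares called were 1.81% lower and 3.3% higher. With the replicate number as a block, the lists held 7 genes called lower and 10 higher. That block called 666 lower and 1061 higher among all 13832 genes tested. Of the listed genes called, EZR alone stayed called in all 6 analyses that leave out 1 library. LRIG1 lost its call without shNC-2, shNC-3 or shACAT2-2. TPBG, FERMT1, PTPN3 and MICAL3 lost it when any 1 shNC library or shACAT2-2 was left out, as did SQLE, which also lost it without shACAT2-3, with adjusted p of up to 0.23.

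Genes near the members were examined next, from the coordinates of the deposited table. Within 500 kb lay 114 other genes, of which 30 were tested, and 3 were called lower and 2 higher, beside 1.81% lower and 3.3% higher over all genes tested. Their median log2 fold change was 0.03. With the replicate number as a block, 5 neighbours were called lower, as were 666 of all genes tested. Among these neighbours were AC099754.1 by LRRC3B and ADA, the adenosine deaminase gene near RIMS4 (log2 fold change −0.48, adjusted p = 0.099 without the block). The groups did not overlap for 12 neighbours that were lower and 7 that were higher in shACAT2 cells, against 14.5% and 16.2% of all genes tested. Near KIAA1191, 10 genes were tested and FAF2, which encodes a factor of endoplasmic reticulum-associated degradation, was higher (log2 fold change 0.50, adjusted p = 0.031). SIMC1, whose 3′ end lies 0.07 kb from that of KIAA1191, had a log2 fold change of −0.28 (adjusted p = 0.12). Near RIMS4, 9 genes were tested, and SERINC3 (−0.44, adjusted p = 0.033) and PABPC1L (−0.47, adjusted p = 0.040) were lower. Near PLEKHH1, 10 genes were tested, and the arginase gene ARG2 was lower (−0.73, adjusted p = 0.033) while ATP6V1D, a subunit of the vacuolar proton pump, was higher (0.51, adjusted p = 0.028). All 5 of these calls were lost when any 1 shNC library or shACAT2-2 was left out, FAF2 and SERINC3 also without shACAT2-3 and PABPC1L without shACAT2-1, with adjusted p of up to 0.19.

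The LRRC3B locus held 1 other tested gene. AC099754.1, a long non-coding RNA on the minus strand of chromosome 3 from 26619330 to 26622690, starts 116 bases from the annotated start of LRRC3B and runs the opposite way. The shNC libraries 1 to 3 gave 1.15, 2.58 and 2.43 FPKM, from 8, 19 and 19 fragments. It was listed at 0 in shACAT2-1 and had 0.663 and 0.440 FPKM in shACAT2-2 and shACAT2-3, from 5 and 3 fragments. The separation of LRRC3B was fixed by its choice. All shACAT2 values of AC099754.1 also lay below all its shNC values. With group means of 2.05 and 0.368 FPKM, it passed the filter on low values only through the shNC group. Whether the 2 genes change together was not tested. The log2 fold change of AC099754.1 was −1.15 (SE 0.27), with a limma adjusted p of 0.060, so it was not called. The −1.17 of LRRC3B is on the same scale, where the pseudocount of 1 compresses both low values. By mean FPKM, AC099754.1 kept 17.9% of its shNC level and LRRC3B 23.4%. Over the alternatives LRRC3B ran from −2.09 to −1.15. AC099754.1 ran from −2.73 to −0.94, and its adjusted p from 0.020, with the replicate block, to 0.22.

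**Figure D4:**
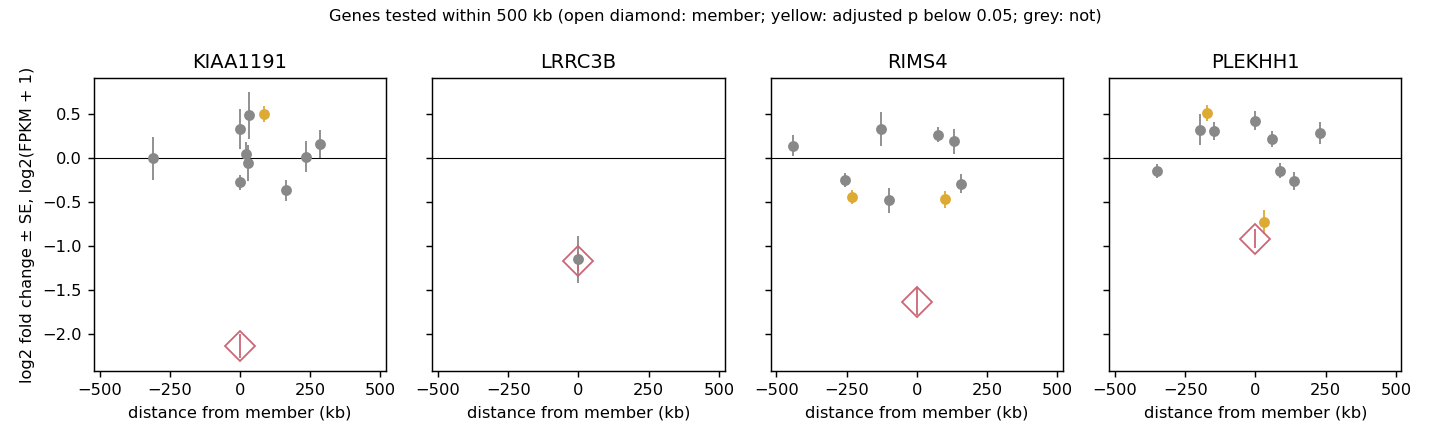
Log2 fold change ± SE on log2(FPKM + 1) of the 30 genes tested within 500 kb of each member, against distance in kb, with the member as an open diamond at 0. Yellow points had an adjusted p below 0.05 and grey points did not. AC099754.1 (−1.15) lies inside the diamond of LRRC3B (−1.17), while no tested neighbour of KIAA1191, RIMS4 or PLEKHH1 lies as low as the member itself.

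Shared exons limit how far single values can be read, because the strand setting of the counting is not given in the sources used here. For the targeted gene ACAT2, 9.23% of the length is shared with exons of TCP1, which had 5249 to 7041 fragments, and 26.5% with those of SOD2, both on the opposite strand. How far this enters the ACAT2 level was not tested. PLEKHH1 shares 558 exon bases, or 5.16% of its length, with PIGH on the opposite strand, which had 216 to 318 fragments and a log2 fold change of 0.42 (adjusted p = 0.073). RIMS4 shares 506 bases with KCNK15, which had 1 to 9 fragments, and KIAA1191 shares 262 bases with the antisense gene AC138956.1, which had 0 to 11. AC138956.2, a second antisense gene inside KIAA1191, had 7 to 19 fragments and a log2 fold change of 0.33 (adjusted p = 0.43). Of the loci that RefSeq names as pseudogenes of KIAA1191, the overlapping pseudogenes AL354983.1, AC093816.1 and AP003080.1 had 1 to 10, 0 to 4 and 0 to 3 fragments. These counts are small beside the 291 to 1744 fragments of KIAA1191 itself.

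The genes whose pattern over the 6 libraries was most like each member were found by Pearson correlation on log2(FPKM + 1), given as a description because every gene that separates the groups scores high. For KIAA1191 these were SLC7A8 (r = 0.999), a neutral amino acid exchanger, ZNF76 (r = 0.998) and PARP1 (r = 0.997), the DNA damage-sensing polymerase. For RIMS4 they were KIF1A (r = 1.000), a kinesin that carries synaptic vesicle precursors, SEMA6B (r = 0.998), a transmembrane semaphorin, and E2F2 (r = 0.998), a cell cycle transcription factor. For LRRC3B they were the long non-coding RNA AL133215.2 (r = 0.998), the endocytic receptor gene LRP2 (r = 0.997) and MIR320C2 (r = 0.997), the last with 1 fragment in each shNC library and none in shACAT2 cells. For PLEKHH1 they were the pseudogene SYPL1P2 (r = 0.999), TTI1 (r = 0.997), which encodes a partner of the TEL2 complex, and MZF1 (r = 0.997), a zinc finger factor. Between 77 and 93 genes of 13831 had an r above 0.98 with a given member. Among the members r ran from 0.934 between RIMS4 and PLEKHH1 to 0.988 between KIAA1191 and LRRC3B, and r with ACAT2 ran from 0.976 to 0.992. Measured levels behind the most like genes were 7.02 and 3.85 FPKM for KIF1A, 23.1 and 8.15 for SLC7A8, and 2.19 and 0.376 for LRP2, as means of shNC and shACAT2 cells.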

How the data were processed

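RNA-seq libraries of HGC-27 cells (3 shNC, 3 shACAT2) were analysed. Groups and replicate numbers came from the sample titles. The authors deposited 1 FPKM value per gene and library for 58735 genes. The submitters' processing notes name HISAT2 2.0.5, featureCounts 1.5.0-p3, DESeq2 1.20.0 and hg38, without their roles, and the strand setting is not given in the sources used here. All 58735 genes were found in GENCODE 29, and 58724 had the same start and end. FPKM times gene length fell on whole multiples of 1 step per library for 100% of values (tolerance 0.01 fragment), which gave the fragments. The denominator of the deposited FPKM was 0.957 to 1.07 times the fragments on genes.

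Differences were tested with limma 3.58.1 (R 4.3.3, trend) on log2(FPKM + 1) for genes whose mean reached 1 FPKM in shNC or in shACAT2 cells, with Benjamini-Hochberg adjustment over all 13832 genes, and a gene was called at an adjusted p below 0.05. The code was tested on simulated data. Other steps used Python 3.11.15. The members, gene lists and tests were chosen with earlier results of these data known. Named genes were the members, ACAT2, paralogues, pseudogenes, nearest and called neighbours, the top 3 listed genes called per direction and the 3 most correlated genes per member. CPLX1, ERC1, RAB3B, DOC2A, RAB3D and the overlapping antisense genes were named after their values were seen.

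Deviations of same-numbered samples from their group means had correlations of 0.445, 0.126 and 0.171, in replicate order. Differently numbered pairs above 0.1 were shNC-2 and shACAT2-3 (0.198) and shNC-3 and shACAT2-2 (0.141). Of the same-numbered correlations, only 0.445 lay above those of all differently numbered pairs. Pairing by replicate number was therefore not established for all samples. The main limma fit left out the replicate block, which was tried as an alternative. Alternatives tried were the replicate block, a pseudocount of 0.1, scaling by upper quartile or library size, testing without a filter or with at least 10 fragments per library, limma-voom on the fragments, shNC-2 and shNC-3 averaged, and each library left out in turn.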

Additional observations from a re-analysis of the deposited data

How the results depend on the processing

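Of the 13832 genes tested, 250 were called lower and 456 higher. The respective counts were 400 lower with library-size scaling, 60 and 149 without a filter, 379 lower with at least 10 fragments in every library, 399 lower by limma-voom and 20 and 63 after averaging shNC-2 with shNC-3. With 1 library left out they ran from 14 to 339 and from 49 to 523. The low end came from leaving out any 1 shNC library or shACAT2-2, which gave 34 and 95 for shACAT2-2, 35 and 100 for shNC-1, then 25 and 76 for shNC-2, and finally 14 and 49 for shNC-3. With the replicate block they were 666 and 1061, and AC099754.1, ADA, CPLX1 and VIM gained a call under it, while it changed no other call of a named gene tested. The 4 listed genes called lower became 1 without a filter, 7 with the replicate block and 0 after averaging shNC-2 with shNC-3, and ran from 0 to 4 with 1 library left out. The 3 listed genes called higher became 1, 10 and 1 under the same settings, 5 with at least 10 fragments and 5 by limma-voom, and ran from 1 to 6. The 3 neighbours called lower became 5 with library-size scaling, 0 without a filter, 5 with the replicate block and 0 after averaging shNC-2 with shNC-3, with a range of 0 to 3. The 2 neighbours called higher became 0 without a filter and 0 with the average, with a range of 0 to 2. Of the genes with systematic symbols, the 8 called lower became 14 with library-size scaling, 1 without a filter, 15 with at least 10 fragments, 23 with the replicate block, 19 by limma-voom and 0 with the average, with a range of 0 to 11. The 23 called higher became 3 without a filter, 48 with the block and 0 with the average, with a range of 0 to 20.

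The log2 differences of KIAA1191 (−2.33 to −2.03) and RIMS4 (−1.75 to −1.50) moved by less than the spread between libraries under the 14 alternatives. LRRC3B moved from −1.17 to −1.93 with a pseudocount of 0.1 and to −2.09 by limma-voom, and PLEKHH1 from −0.92 to −1.26 and −1.32, since the pseudocount of 1 compresses low values. With 1 library left out, RIMS3 ran from −0.094 to 0.00012 (without shNC-1), PLEKHH3 from −0.31 to 0.16 (without shACAT2-3) and NOP16, a neighbour of KIAA1191 with no call, from −0.093 (without shACAT2-1) to 0.12. NOP16 was −0.0078 with library-size scaling. Depth limits LRRC3B, with 80 to 90 fragments in shACAT2 cells, and AC099754.1, with 0 to 19 in all libraries. The cause of the other changes was not tested.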

Other observations

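Genes named by sequence and not by role, with symbols of the KIAA, C-orf, FAM, TMEM, CCDC, LRRC or PLEKH kind, were counted without the members. Of 547 such protein-coding genes tested, 8 (1.46%) were called lower and 23 (4.20%) higher in shACAT2 cells, against 1.80% and 3.90% of the 10787 protein-coding genes tested. Among those lower were C14orf132 (7.05 ± 0.388 to 3.79 ± 0.230 FPKM, SD, n = 3, limma adjusted p = 0.0085), LRRC49, which encodes a leucine-rich repeat protein (3.95 to 2.02 FPKM, adjusted p = 0.028), and KIAA1147 (5.74 to 3.38 FPKM, adjusted p = 0.023). Of the 141 TMEM genes tested, 10 were called higher and 1 lower. TMEM30A, which encodes a subunit of phospholipid flippases, rose from 5.65 ± 0.906 to 14.7 ± 3.14 FPKM (SD, n = 3, adjusted p = 0.016), and TMEM45A rose from 1.98 to 4.35 FPKM (adjusted p = 0.015). No test of any of these shares against all protein-coding genes was made. Leaving out shACAT2-2 or any 1 shNC library left 0 or 1 such genes called lower and 0 or 1 higher.

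Markers of other cell types were low, apart from genes that mesenchymal lines often carry. COL1A1, a fibrillar collagen gene, was 61.0 ± 5.22 FPKM in shNC cells and 121 ± 16.1 in shACAT2 cells (SD, n = 3, adjusted p = 0.014). DCN, which encodes decorin, was 8.11 ± 0.0521 and 12.3 ± 0.925 FPKM (SD, n = 3, adjusted p = 0.025). Of the 10 immune, stromal, endothelial and liver markers examined, only COL1A1 and DCN reached the level needed for testing. Among the rest, the immune and endothelial markers PTPRC, CD3E and PECAM1 averaged at most 0.0625 FPKM in either group. Whether these genes bear on the low levels of KIAA1191, LRRC3B, RIMS4 and PLEKHH1 was not tested.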
